A study of Homo sapiens with 13 samples.

Results

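The 10 genes described here are ATF3, PLK2, EDN1, FOS, FOSB, JUN, EGR1, GADD45B, KLF6 and IER3, taken by symbol from a list of stress-induced and immediate-early genes. All 10 were found in both expression tables of the study, among 15005 genes counted in single cells and 57820 gene identifiers counted in bulk tumours. They lie on chromosomes 1 (ATF3 and JUN), 5 (PLK2 and EGR1), 6 (EDN1 and IER3), 10 (KLF6), 14 (FOS) and 19 (FOSB and GADD45B). The genes were chosen by their single-cell values, namely the mean over cells, the share of positive cells and the co-variation in each tumour, with the bulk tumours as a reference. Those values are therefore given as descriptions, and the level of the genes in bulk tumours with and without KMT5C overexpression is the measure tested.

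Immediate-early genes are switched on within minutes of a growth factor, stress or mechanical signal, before any new protein is made, mainly through kinase cascades that act on factors already bound at their promoters. FOS, FOSB and JUN encode subunits of the AP-1 transcription factor, EGR1 a zinc-finger activator, and ATF3 a stress-induced relative that pairs with JUN proteins. In tumour cells these genes are outputs of the RAF-MEK-ERK cascade, which RKIP (Raf kinase inhibitor protein, gene PEBP1) inhibits, and they are also well known to be induced while solid tissue is being dissociated into single cells.

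All tumours were grown from BM1, a human breast cancer line obtained from MDA-MB-231 cells and known for its spread to bone. Into a mammary fat pad of each host, an athymic nude mouse, 1000000 cells were placed. The age of the mice is not given in the labels. In the bulk experiment, 5 control tumours (CTRL) carried the lentiviral vector pLV-EF1a-IRES-Hygro and 5 tumours overexpressed human KMT5C, a histone methyltransferase, by lentivirus in selected stable cells. They were taken at 4 weeks and homogenised fresh, without dissociation into living cells. In the single-cell experiment, 3 vector-control tumours (BM1-VC, CTRL) and 3 tumours carrying RKIP-S153E (RKIP) were taken at 3 weeks, dissociated, depleted of mouse cells and dead cells, and captured on a Fluidigm C1 HT chip in 3 replicate experiments with 1 tumour of each arm. Athymic mice lack mature T cells and keep other immune cells, and the labels do not say whether any of the cell lines was a clone or a pool.

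Bulk libraries held 37050750 to 49536763 counts. Single-cell tumours held 19516061 to 34568923 counts over 247 to 274 cells, with a median of 55704 to 95289 counts per cell. CTRL tumour 1 and RKIP tumour 1 had the highest median counts per cell but the fewest genes. Their medians were 3130 and 3305 genes per cell, against 4361 to 4953.5 in the other single-cell tumours. KMT5C itself was 3.79 log2 units (SE 0.13) higher in the KMT5C tumours. Counts of the rat RKIP transgene (ratpebp1), summed per tumour, were 11.9, 205.1 and 125.9 CPM (counts scaled to a library of 1000000) in RKIP tumours 1, 2 and 3 and at most 0.608 CPM in CTRL tumours. The tumour numbers 1 to 3 follow cell-name endings, which the labels do not tie to their replicate numbers. Below, an experiment means the CTRL and RKIP tumours with the same ending. Within every experiment CTRL cells sat in chip columns 1 to 10 and RKIP cells in columns 11 to 20, so arm and chip side cannot be told apart. Of 577 chip-position names, 551 recurred in 2 or more tumours, 0 in both arms, and 0 cells had counts identical to another cell. The 10 listed tumour-line markers, such as VIM and CD44, were present in every library, and the marker lists of other cell types summed to lower levels.

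Upstream promoter sequence is shown for 5 of the genes, chosen because they hold the core elements through which this class of gene is classically regulated. The stretches run from base -140 to base -1 before a RefSeq transcript start (GRCh38.p14, plus strand). Capitals mark TATAAA (the TATA box), the CArG box (the binding site of serum response factor) and TGACG or its complement CGTCA (the core of the cAMP response element that ATF and CREB proteins bind). FOS lies at chr14:75278688-75278827, FOSB at chr19:45467856-45467995, EGR1 at chr5:138465339-138465478 and GADD45B at chr19:2475987-2476126. EDN1, at chr6:12290221-12290360, is shown at the third of its starts, the one with a TATA box.
FOS: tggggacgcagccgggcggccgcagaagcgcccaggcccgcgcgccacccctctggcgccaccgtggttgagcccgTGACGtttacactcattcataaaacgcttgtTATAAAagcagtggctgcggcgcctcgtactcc
FOSB: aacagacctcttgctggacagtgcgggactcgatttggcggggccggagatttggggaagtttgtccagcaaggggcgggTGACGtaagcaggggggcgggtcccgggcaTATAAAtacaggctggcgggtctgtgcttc
EGR1: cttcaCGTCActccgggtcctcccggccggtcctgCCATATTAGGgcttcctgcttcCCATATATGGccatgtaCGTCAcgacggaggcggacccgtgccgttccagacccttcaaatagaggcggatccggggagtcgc
GADD45B: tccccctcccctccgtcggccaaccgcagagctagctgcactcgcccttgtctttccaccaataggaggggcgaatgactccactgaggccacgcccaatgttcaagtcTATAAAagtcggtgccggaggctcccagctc
EDN1: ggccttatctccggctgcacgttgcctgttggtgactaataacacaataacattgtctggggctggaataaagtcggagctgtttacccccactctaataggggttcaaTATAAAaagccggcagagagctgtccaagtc

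In FOS, FOSB, GADD45B and EDN1 the TATAAA match begins 30 to 33 bases before the start, and FOS and FOSB each carry a TGACG match upstream of it. EGR1 has no TATAAA match in its window and holds a pair of CArG boxes between bases -105 and -74, flanked by CGTCA at bases -135 to -131 and -66 to -62. RefSeq windows of 250 upstream bases existed for 9 of the 10 genes, IER3 being the other, and were searched on both strands over every listed start. TATAAA was found in 5 of the genes (ATF3, EDN1, FOS, FOSB and GADD45B), against 10.72% of all 35116 windows. The ATF3 match lies at bases -230 to -225 of 1 of its starts, much farther upstream than those of the other genes. TGACG was found in 6 genes (PLK2, EDN1, FOS, FOSB, JUN and EGR1), against 21.22% of windows. The CArG box was matched in EGR1 alone, against 1.159% of windows, and GGGCGG, the GC box of Sp1 factors, in 7 genes against 42.64%. The full element TGACGTCA, which contains TGACG, had 0 matches among the 9 genes, against 1.646% of windows, and the AP-1 element TGACTCA or TGAGTCA also had 0, against 4.203%. Genes with several starts had more windows in which to find a match, so their counts and the share of single windows differ in basis. A match is a string of letters, not a shown binding site. Sites more than 250 bases upstream and variants of these strings were not searched, so a gene without a match may still hold the element.

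**Figure D1:**
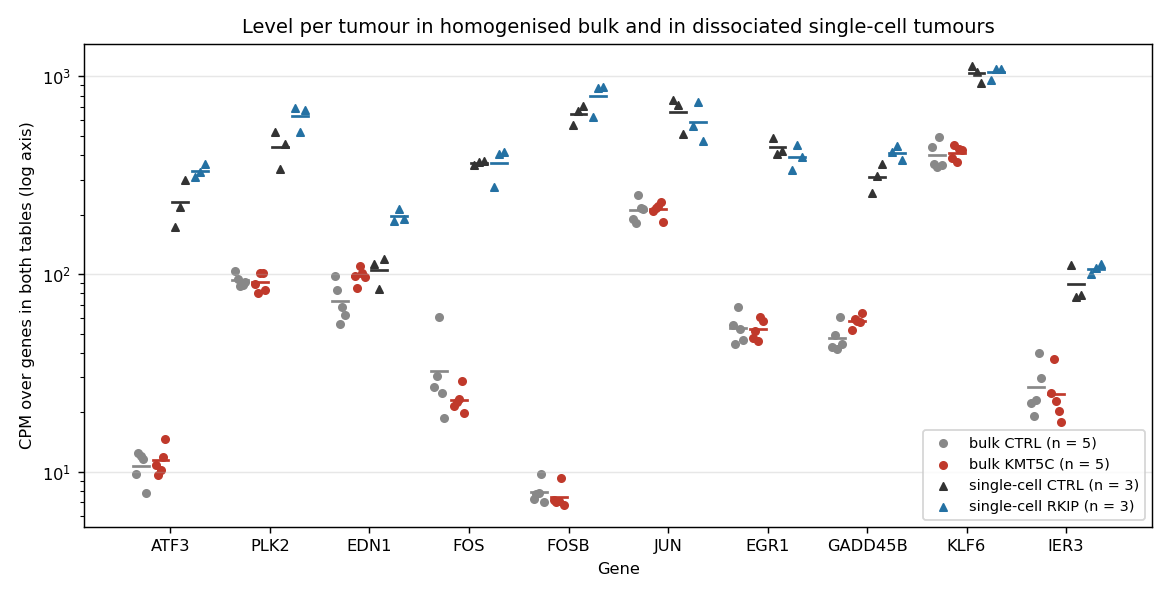
Level of each of the 10 genes in every tumour, in CPM over the 12865 genes named in both tables (log axis). Each point is 1 tumour, bulk as circles and summed single cells as triangles, and bars are group means. The single-cell tumours lie above the bulk tumours for 9 of the 10 genes, EDN1 being the exception, and the bulk arms overlap for all 10.

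In tumours that were not dissociated, the AP-1 genes and ATF3 differed between KMT5C and control tumours by less than the spread within the CTRL arm. None of the 10 genes passed the test between the bulk arms (edgeR quasi-likelihood, Benjamini-Hochberg adjusted p under 0.05), where 531 of 17947 genes did (2.96%). The arms overlapped for all 10 genes, while 5.7% of all genes had arms that did not overlap and 2.44% had all KMT5C tumours above all CTRL tumours. By unadjusted p of the edgeR test, EDN1 and GADD45B ranked lowest of the 10. DESeq2 called 1 of the 10, EDN1, and it called more genes in all than edgeR did. In a bulk tumour, fewer cells of a type and less RNA per cell cannot be told apart. Bulk levels below are CPM scaled by TMM (trimmed mean of M values), and fold changes are on the log2 scale, KMT5C minus CTRL.

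EDN1 encodes endothelin-1, a secreted peptide that constricts vessels and acts on tumour and stromal cells through the receptors EDNRA and EDNRB. Its levels were 86.6, 75.0, 50.7, 62.8 and 54.1 CPM in CTRL tumours 801, 803, 804, 813 and 815. The KMT5C tumours 807, 809, 816, 820 and 823 had 86.0, 76.4, 99.1, 93.1 and 93.7 CPM. The KMT5C tumours were mostly higher, but CTRL 801 lay among them. The means were 65.9 ± 14.9 and 89.7 ± 8.75 CPM (SD, n = 5 each), a difference of 0.45 (SE 0.13) with an edgeR adjusted p of 0.0674. With all tumours DESeq2 gave an adjusted p of 0.0176. Without CTRL 801 the edgeR adjusted p was 0.0106. Leaving out the control that lay among the KMT5C tumours draws the arms apart, so nothing is read from that value. EDN1 was not called by edgeR when any other tumour was left out. The endothelial marker TIE1 was lower in KMT5C tumours by edgeR, 1 of 8 tested, where 1.9% of all genes were called lower. The 9 endothelial markers in the table summed to 288.8 to 351.2 CPM in CTRL and 276.3 to 326.6 CPM in KMT5C tumours. The host is a mouse and the counted genes are human. Whether marker counts, here and below, come from host cells was therefore not determined. The part of endothelial cells in the EDN1 level was not tested.

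GADD45B, a stress sensor that binds MAP kinase kinases, was the other gene whose KMT5C tumours were mostly higher. CTRL tumours, in the same order, had 37.7, 44.3, 37.9, 55.4 and 38.3 CPM, and KMT5C tumours had 46.2, 53.5, 51.9, 52.7 and 61.5 CPM. Only CTRL 813 reached into the KMT5C range, and the difference was 0.32 (SE 0.11, edgeR adjusted p = 0.135). DESeq2 on all tumours gave an adjusted p of 0.0888. Without CTRL 813 the edgeR adjusted p was 0.0172. Leaving out the only overlapping control sets the arms apart, so nothing is read from that value. GADD45B was not called by edgeR when any other tumour was left out.

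FOS had the widest spread of the bulk AP-1 genes. CTRL tumours had 23.8, 27.5, 55.0, 22.9 and 16.2 CPM and KMT5C tumours 19.0, 20.5, 20.9, 26.5 and 19.1 CPM. A single tumour, CTRL 804, stood far above the other 9. The difference was -0.46 (SE 0.28, edgeR adjusted p = 0.460) and shrank to -0.09 without CTRL 804. FOSB, its close relative, had 6.41, 7.02, 7.10, 9.01 and 6.10 CPM in CTRL and 6.37, 6.34, 6.39, 8.62 and 6.56 CPM in KMT5C tumours. CTRL 804 was not high in FOSB, and the arms differed by -0.05 (SE 0.13, edgeR adjusted p = 0.875).

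ATF3 represses or activates transcription as a dimer with other AP-1 proteins. Its bulk levels were 8.67, 11.2, 10.9, 10.6 and 6.82 CPM in CTRL and 9.52, 8.66, 9.13, 10.9 and 14.2 CPM in KMT5C tumours. The ranges overlapped almost fully apart from KMT5C 823, and the difference was 0.12 (SE 0.15, edgeR adjusted p = 0.758). PLK2, a polo-like kinase induced by stress and p53, was the steadiest of the 10, with 92.1, 85.8, 79.2, 81.3 and 79.6 CPM in CTRL and 78.8, 72.2, 90.4, 93.4 and 80.0 CPM in KMT5C tumours. Its means were 83.6 ± 5.45 and 83.0 ± 8.74 CPM (SD, n = 5 each), a difference of -0.01 (SE 0.078).

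The remaining 4 genes also overlapped between the bulk arms. JUN, the main partner of FOS proteins, ranged from 164.9 to 228.2 CPM in CTRL and from 177.6 to 213.4 CPM in KMT5C tumours. EGR1 ranged from 40.1 to 62.0 CPM in CTRL and from 41.2 to 55.8 CPM in KMT5C tumours. These ranges nested within each other, and both differences were under 0.05. KLF6, a Krüppel-like factor, ranged from 307.5 to 453.5 CPM in CTRL and from 331.2 to 409.1 CPM in KMT5C tumours. IER3, a small immediate-early protein that modulates cell survival and ERK signalling, ranged from 17.4 to 36.8 CPM and from 17.3 to 33.5 CPM.

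The surrounding pathways in bulk were read from gene lists. In the AP-1 and ATF family 0 of 17 genes passed, with FOS itself the gene that differed most. Among the other immediate-early genes 0 of 26 passed, and EGR3 had the largest difference (0.51, SE 0.29). The outputs and feedback inhibitors of ERK had 2 of 20 genes higher, EPHA4 (an ephrin receptor, 0.51, SE 0.11, edgeR adjusted p = 0.0168) and HBEGF (an EGF receptor ligand, 0.26, SE 0.065, edgeR adjusted p = 0.0410), and 0 lower. These counts stand against 1.06% of all genes called higher, and the median difference of the 20 genes was 0.00, as over all genes.

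In the endothelin system, the receptor EDNRA was lower in KMT5C tumours (-0.63, SE 0.16, edgeR adjusted p = 0.0425), 1 of 6 genes tested, where 1.9% of all genes were called lower. Among early NF-kB targets 3 of 16 genes were lower: the chemokines CCL2 (-1.40, SE 0.22) and CXCL1 (-0.91, SE 0.15) and the prostaglandin synthase PTGS2 (-0.75, SE 0.16). The leukocyte marker LAPTM5 was also lower, at 140.4 ± 19.8 CPM in CTRL and a mean of 89.6 CPM in KMT5C tumours. It makes up most of the 10 leukocyte markers' sum, 123.7 to 173.6 CPM in CTRL and 95.2 to 117.4 CPM in KMT5C tumours, while TYROBP was at 0 in every bulk tumour. LAPTM5 was also at 98.2 ± 24.4 CPM in the single-cell CTRL tumours, which had been depleted of mouse cells. The part of leukocytes in the lower chemokines was not tested. In the integrated stress response list, which holds other ATF-driven genes, SLC7A11 (the cystine transporter) was lower (-0.56, SE 0.11), 1 of 16. No gene passed among 13 GADD45, PLK and KLF relatives (KLF9 differed most, -0.34), 11 serum response factor and TCF regulators (NAB1, 0.22), 16 p53 targets (GDF15, 0.57) or 12 tested heat shock genes. Skeletal muscle markers were the list that moved most, with 6 of 11 higher in KMT5C tumours and sums of 24.1 to 31.2 CPM in CTRL and 36.9 to 65.6 CPM in KMT5C tumours.

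In the dissociated tumours most of the 10 genes stood far higher than in the homogenised ones. For this comparison CPM was taken over the 12865 genes named in both tables, and folds are of group means with a pseudocount of 1 CPM. The tables differ in dissociation, depletion of mouse and dead cells, library method, vector, week and mouse supplier. These cannot be told apart, so no test was made. Levels are compared within each gene only, since neither table is divided by gene length.

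FOSB differed most, with a mean of 7.93 ± 1.10 CPM in the 5 bulk CTRL tumours and 646 ± 72.9 CPM in the 3 single-cell CTRL tumours, 72.5-fold. This was rank 9 of the 10871 genes compared, those with a mean of at least 5 CPM in either set of CTRL tumours. ATF3 went from 10.7 ± 1.90 to 230.5 ± 64.2 CPM, 19.7-fold, and FOS from 32.3 ± 16.4 to 365 ± 7.59 CPM, 10.99-fold. Even the bulk tumour with the most FOS was far below every dissociated tumour. EGR1 was 8.06-fold, GADD45B 6.42-fold and PLK2 4.69-fold higher.

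The other 4 genes were less far apart. IER3 was 3.22-fold, JUN 3.14-fold and KLF6 2.59-fold higher in the single-cell controls. EDN1 was the exception, with 73.5 ± 16.9 CPM in bulk CTRL and 104.8 ± 18.5 CPM in single-cell CTRL tumours, 1.42-fold, and overlapping tumours. In all, 6 of the 10 genes were at least 4-fold higher, as were 5.15% of the genes compared. For 9 of the 10 all 3 single-cell CTRL tumours lay above all 5 bulk CTRL tumours, as did 20% of the genes compared. The median log2 ratio was 2.46 over the 10 genes and -0.60 over all genes.

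Other immediate-early genes stood at widely different levels. Of the 20 compared, 4 were at least 4-fold higher, against 5.15% of all genes: the orphan nuclear receptors NR4A1, NR4A2 and NR4A3 and the kinase SGK1. The median log2 ratio of the 20 was -0.10. NR4A1 rested on CTRL tumour 2, with 1.32, 33.9 and 12.0 CPM in the 3 single-cell CTRL tumours, and its fold of 4.67 fell to 2.14 without that tumour. Further members of the class ran from higher to lower in the single-cell tumours, with JUNB at 1.83-fold, IER2 at 1.34-fold, DUSP1 at 0.853-fold and MYC at 0.207-fold. Among ERK feedback and output genes SPRY1 alone of 19 was at least 4-fold higher (8.84-fold), and 6 were at least 4-fold lower, as were 14% of all genes. Early NF-kB targets had 5 of 15 at least 4-fold higher: NFKBIA, CXCL1, CXCL2, CXCL3 and IL6. The fold of IL6 was 8.74 and without CTRL tumour 2 it was 3.27. Of 14 heat shock genes, HSPA1A and HSPA1B were, but they are near-identical copies whose reads the counting could have split or dropped, so their values are uncertain.

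**Figure D2:**
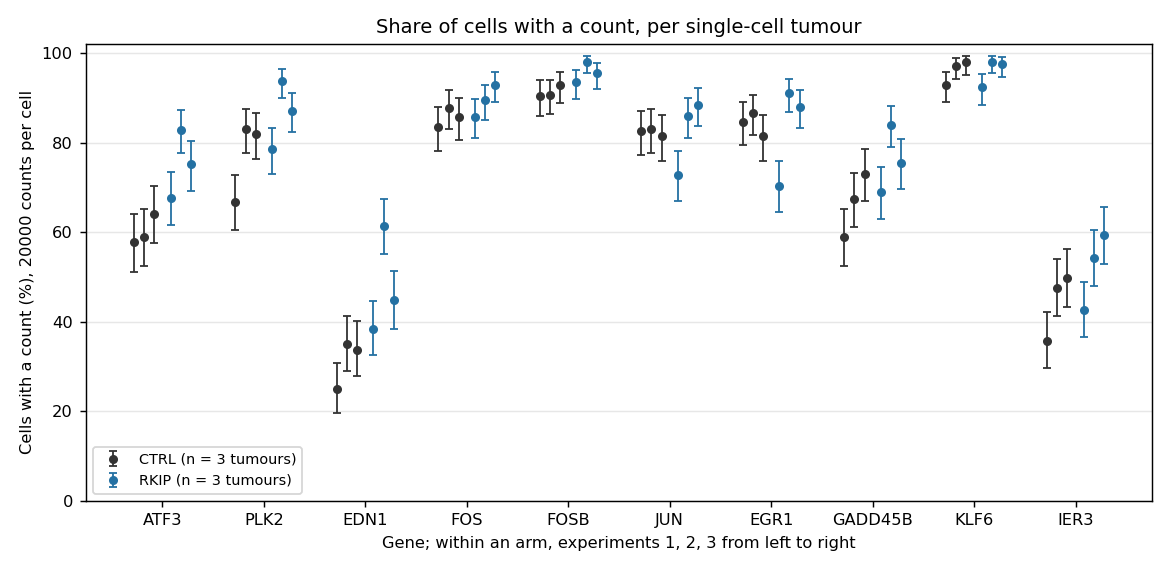
Percentage of cells with at least 1 count of each gene, after every cell was thinned to 20000 counts, for CTRL (dark) and RKIP (blue) single-cell tumours in experiments 1, 2 and 3 from left to right. Bars are exact 95% binomial intervals, which cover counting error only. ATF3, EDN1 and FOSB show all 3 RKIP tumours above all 3 CTRL tumours, and PLK2, GADD45B, IER3, FOS, JUN, EGR1 and KLF6 overlap between arms.

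Within the single-cell experiment, ATF3, PLK2 and EDN1 were higher in RKIP than in CTRL tumours, whereas FOS, JUN, EGR1 and KLF6 showed no common direction. The choice of genes rests on these values, so they carry no test. Levels are CPM of counts summed over the cells of each tumour, TMM-scaled, and fold changes come from the edgeR fit with the experiment as a block. For ATF3, EDN1 and GADD45B, 3 of the 10 genes, all 3 RKIP tumours lay above all 3 CTRL tumours, as they did for 4.38% of all 14755 genes tested, and 8.78% of genes had arms apart in either direction. The edgeR fit called 1 gene in all, 0.00678%, and since the 10 genes were chosen on this contrast nothing is read from whether a test calls them.

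ATF3 had 173.2, 207.2 and 275.1 CPM in CTRL tumours 1, 2 and 3 and 311.6, 317.9 and 338.3 CPM in RKIP tumours 1, 2 and 3, a log2 difference of 0.59 (SE 0.14). EDN1 had 111.7, 79.6 and 108.9 CPM in the CTRL tumours, against 186.4, 207.5 and 178.4 CPM in the RKIP tumours, a log2 difference of 0.94 (SE 0.18). For both, the lowest RKIP tumour exceeded the highest CTRL tumour. PLK2 had 525.2, 322.4 and 418.6 CPM in CTRL and in RKIP 691.6, 506.2 and 636.8 CPM, a log2 difference of 0.55 (SE 0.10). It was higher in RKIP within each experiment, although RKIP tumour 2 lay below CTRL tumour 1.

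GADD45B had 256.8, 298.6 and 331.5 CPM in the CTRL tumours, against 413.3, 433.5 and 353.1 CPM in the RKIP tumours, a log2 difference of 0.44 (SE 0.14). FOSB had 564.4, 634.4 and 647.7 CPM in CTRL and in RKIP 623.2, 844.3 and 835.0 CPM, a log2 difference of 0.31 (SE 0.099). FOSB overlapped through RKIP tumour 1, and CTRL tumour 1 was likewise the lowest of its arm. FOS had 356.0, 348.8 and 340.6 CPM in CTRL and in RKIP 275.0, 394.0 and 388.9 CPM, so experiment 1 and the other 2 experiments went opposite ways. JUN (-0.15, SE 0.12), EGR1 (-0.14, SE 0.16), KLF6 (0.04, SE 0.12) and IER3 (0.31, SE 0.20) had arms that overlapped.

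The share of cells with a count rises both with the number of cells that carry a transcript and with the amount in each, so it is given beside the mean in positive cells. Cells were thinned to 20000 counts each, which left out 87 shallower cells and kept 237 to 260 per tumour. Cells were not sorted into types, and no population known to lack these genes was set apart, so the share that free RNA would give was not measured.

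ATF3 was counted in 57.7%, 58.9% and 64.1% of CTRL cells and in 67.7%, 82.8% and 75.1% of RKIP cells of tumours 1, 2 and 3. In the cells that had it, its mean was 6.19 to 8.04 counts in CTRL and 8.08 to 9.18 counts in RKIP tumours, higher in RKIP in 3 of 3 experiments. Both the share and the amount per positive cell were thus higher. EDN1 was counted in 24.9%, 35.0% and 33.8% of CTRL cells and in 38.5%, 61.3% and 44.8% of RKIP cells. Its mean in positive cells was higher in RKIP in 2 of 3 experiments, with ratios of 0.972, 1.39 and 1.11, so the share differed more steadily than the amount. PLK2 followed EDN1, with shares of 66.8%, 82.9% and 81.9% in CTRL and 78.5%, 93.8% and 87.1% in RKIP cells and ratios of 0.972, 1.44 and 1.45 in positive cells.

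The unthinned shares, over all cells kept, had the same direction. ATF3 was counted in 71.3%, 70.0% and 79.1% of CTRL and 82.7%, 91.2% and 86.7% of RKIP cells. EDN1 was counted in 40.5%, 49.1% and 45.7% of CTRL and 59.4%, 79.6% and 59.0% of RKIP cells. All 3 RKIP tumours again lay above all 3 CTRL tumours for both genes.

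FOSB was near its ceiling in both arms, in 90.5% to 92.8% of CTRL and 93.5% to 98.0% of RKIP cells. KLF6 was likewise counted in 92.3% to 98.0% of cells of every tumour. The shares of EGR1 went in different directions, from 84.6% to 70.4% in experiment 1 and from 86.6% to 91.0% in experiment 2, CTRL to RKIP. JUN was at 82.6% in CTRL and 72.7% in RKIP cells of experiment 1 and was higher in RKIP in the other 2. IER3, in 35.7% to 49.8% of CTRL and 42.7% to 59.3% of RKIP cells, was higher in RKIP in 3 of 3 experiments in share but in 2 of 3 in amount per positive cell. Across the 10 chip columns of a tumour the ATF3 share ran from 39.1% to 76.9% in CTRL tumour 1 and from 70.4% to 92.3% in RKIP tumour 2, with few cells in each column.

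**Figure D3:**
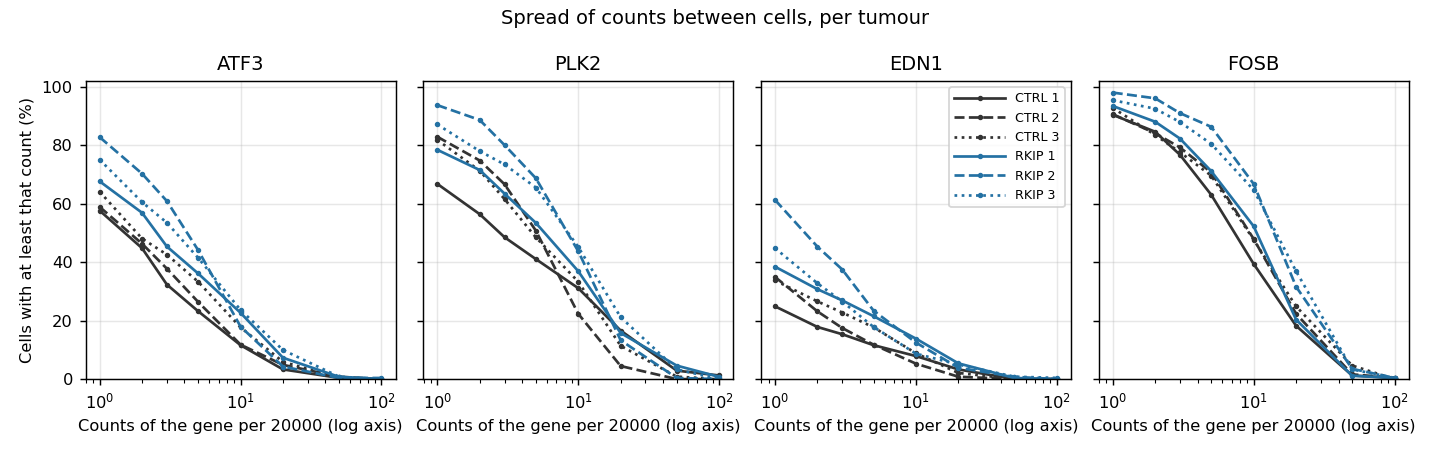
Percentage of cells with at least a given count of ATF3, PLK2, EDN1 and FOSB (cells thinned to 20000 counts, log axis for the count), 1 line per tumour, CTRL dark and RKIP blue. The arms are farthest apart at 1 to 5 counts for ATF3 and EDN1, and the lines meet at 50 counts or more, where few cells remain.

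The spread between cells differed among the 10 genes. EDN1 was the most concentrated, the 10% of cells with the highest count holding 57.2% to 85.4% of all its counts, while for FOSB they held 29.1% to 35.1%. At 10 or more counts, ATF3 was found in 11.6%, 11.8% and 17.7% of CTRL and 22.7%, 18.0% and 23.7% of RKIP cells. The arms were barely apart at this count, and at 20 or more counts they overlapped, with 3.32%, 4.88% and 5.91% of CTRL and 7.31%, 4.30% and 9.96% of RKIP cells. Against genes of like mean, the squared coefficient of variation of JUN stood at percentile 82.9 to 97.9 and that of GADD45B at 75.3 to 97.9 in the 6 tumours. IER3 stood at percentile 3.71 to 59.0, below the middle of such genes in all tumours but CTRL 1 and CTRL 2.

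Every thinned cell had a count of at least 1 of the 10 genes. The median cell had 7, 8 and 8 of them in CTRL tumours 1, 2 and 3 and 7, 9 and 8 in RKIP tumours. Cells with 8 or more made up 38.2%, 54.5% and 56.1% in CTRL and 45.8%, 79.3% and 69.3% in RKIP tumours, higher in RKIP in each experiment. Few cells lay at the other end, with 0 to 3 per tumour having 2 or fewer.

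**Figure D4:**
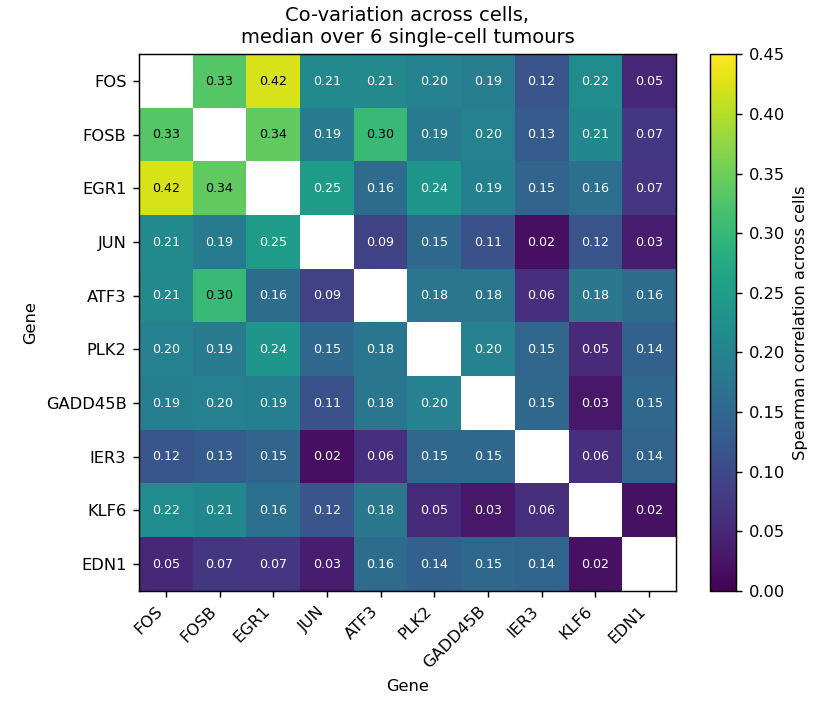
Spearman correlation across cells for each pair of the 10 genes, as the median over the 6 single-cell tumours (cells thinned to 20000 counts). The FOS, FOSB and EGR1 block is the brightest, up to 0.42, and the row of EDN1 is the darkest.

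Across cells of a tumour the genes co-varied, most of all FOS, FOSB and EGR1. Correlations are Spearman's rho over 237 to 260 cells of 1 library at 1 fixed depth, given as descriptions. The median over the 6 tumours was 0.42 for FOS with EGR1, 0.34 for FOSB with EGR1, 0.33 for FOS with FOSB and 0.30 for ATF3 with FOSB. The median of the 45 pairs was 0.0977, 0.183 and 0.251 in CTRL tumours 1, 2 and 3 and 0.122, 0.132 and 0.180 in RKIP tumours. Over all pairs of genes counted in 10% of cells the median was 0.00994 to 0.0263 and the 99th percentile 0.176 to 0.206.

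FOS with FOSB had 0.26, 0.50 and 0.55 in CTRL tumours 1, 2 and 3 and 0.29, 0.29 and 0.37 in RKIP tumours. FOSB with EGR1 had 0.34, 0.51 and 0.58 in CTRL and 0.10, 0.34 and 0.29 in RKIP tumours. The coupling was looser in RKIP in each experiment for FOSB with EGR1 and in 2 of 3 for FOS with FOSB, where CTRL tumour 1 was the lowest of the 6. FOS with EGR1 overlapped between arms, at 0.26, 0.46 and 0.53 in CTRL and 0.29, 0.39 and 0.50 in RKIP tumours.

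EDN1 was the least coupled, with a median of 0.072 over its 9 partners and a highest value of 0.16, with ATF3. Its counts were sparse, in 24.9% to 61.3% of cells per tumour, and many cells at 0 can lower such correlations. IER3, in 35.7% to 59.3% of cells, had a median of 0.13. The part of sparse counts in the EDN1 values was not tested. ATF3 and EDN1 were counted together in 41, 55 and 60 CTRL cells and 77, 137 and 86 RKIP cells, 1.05 to 1.18 times the product of their separate shares. PLK2 was closest to EGR1 (0.24), and PLK2 with EDN1 ran from -0.03 in CTRL tumour 1 to 0.33 in CTRL tumour 3. FOS, FOSB and EGR1 were counted together in 154 to 209 cells per tumour, 1.02 to 1.09 times the product of shares. Over the 7 immediate-early genes other than ATF3, PLK2 and EDN1, the mean log2 level of a cell had a Spearman correlation of -0.09 to 0.11 with the cell's depth before thinning and of 0.04 to 0.29 with its number of genes detected.

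Among 5357 other genes counted in at least 10% of cells of every tumour, those most like the mean of these 7 across cells were JUND (0.34), SGK1 (0.33), CCN1 (0.31), ODC1 (0.31), DUSP1 (0.30) and CCN2 (0.30), each a median over 6 tumours. JUND is a further AP-1 subunit and DUSP1 a MAP kinase phosphatase. ATF3 was most like SGK1 (0.24), ODC1 (0.23) and NEDD9 (0.20), followed by RRAD, WEE1 and EMP1 at 0.17 to 0.18. PLK2 was most like HES1 (0.26), a Notch effector, followed by CCN1 (0.26) and CCN2 (0.24), and ADM, a secreted vasodilator peptide, had 0.20. For EDN1 the nearest were CCN2 (0.23) and CCN1 (0.20), secreted matrix proteins, followed by CSNK1G3, MYEOV, KRT18 and CDKN3 at 0.15 to 0.16. CCN1 and CCN2 were near 3 of the 4, all but ATF3, and none of these values exceeded 0.34.

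The related gene lists in the single-cell arms are also descriptive. NR4A3 and NR4A2, stress-responsive nuclear receptors, had log2 differences of 1.32 (SE 0.49) and 0.58 (SE 0.14), RKIP minus CTRL, and their relative NR4A1 had 0.07 (SE 0.63). The largest difference among the other immediate-early genes was that of EGR2, a low-count relative of EGR1, at -2.37 (SE 1.02), with 3.34 ± 2.60 CPM in the CTRL tumours and 0.511 ± 0.289 CPM in the RKIP tumours (SD, n = 3 each). The AP-1 and ATF family apart from ATF3 was led by BATF3, with 16.3 ± 1.83 CPM in the CTRL tumours and 29.9 ± 6.11 CPM in the RKIP tumours (SD, n = 3 each). The median log2 difference was -0.11 over 15 AP-1 and ATF genes, 0.05 over 24 other immediate-early genes and 0.04 over 20 ERK output genes, against 0.31 over the 10 genes and 0.00 over all genes. The 10 tumour-line markers summed to 7229 to 8258 CPM in the CTRL tumours and 7343 to 9274 CPM in the RKIP tumours.

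In the bulk comparison EDN1 and GADD45B had log2 differences of 0.45 and 0.32 between KMT5C and CTRL, and in the single-cell comparison 0.94 and 0.44 between RKIP and CTRL, from separate sets of tumours. ATF3 and PLK2 had 0.12 and -0.01 in the first and 0.59 and 0.55 in the second. Whether the effects of KMT5C and RKIP differ was not tested.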

How the data were processed

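RNA was measured in 10 bulk tumours and in 1569 single cells of 6 tumours. The deposited values are raw counts per gene, whole numbers with no normalization. Reads were handled with Trim Galore, STAR and featureCounts, per the submitters' processing notes, which name hg38 and hg19 without saying which table used which. The labels do not say whether single-cell counts are molecules or reads, so intervals cover counting error only. The single-cell table holds genes counted in at least 20 cells, and 0 columns were left unused.

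Identifiers without a symbol held 0.664% of bulk counts. A hyphen that had become a dot was restored in 390 single-cell gene names, and 1 cell with under 1000 genes was left out. No doublets were called. Cells were thinned to 20000 counts (seed 1), with 10000 and no thinning as alternatives.

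Bulk arms (5 against 5) were compared with edgeR 4.0.16 (R 4.3.3): TMM, filterByExpr, a robust quasi-likelihood test and Benjamini-Hochberg adjustment over all genes tested, threshold 0.05. Counts of all cells of a tumour were added up and fitted with the experiment as a block. DESeq2 1.42.0, RLE size factors, no filter and leaving out each tumour or experiment were alternatives. Tests were first checked on simulated data. The labels describe 3 experiments with 1 tumour of each arm processed together. The block takes the CTRL and RKIP tumours with the same name ending as 1 experiment, a matching that the labels do not state. For tumours with the same ending, deviations from the arm's mean had correlations of 0.191, 0.0776 and 0.201, against -0.174 to 0.0252 for different endings.

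Shares carry exact Clopper-Pearson 95% intervals. Promoter windows come from RefSeq (GRCh38.p14). The members and lists were chosen with earlier results of these data known. All 10 members are named. A gene of another list could be named where it passed the test or had the largest difference in its list at 1 CPM or more. Between the bulk and single-cell tables, the rule was a level at least 4-fold higher. Not every gene that met these rules is named. NUPR1, at least 4-fold higher between the tables, is left out, as are the called skeletal muscle genes and the leading single-cell genes of several lists. IER2, JUNB, DUSP1 and MYC were named after their values were seen. The genes most like the members across cells are the 6 with the highest median correlation per anchor, of which some are not reported here. Replicates are separate tumours. Python 3.11.15 with numpy 2.4.6, scipy 1.17.1, statsmodels 0.14.6 and matplotlib 3.10.9 was used for the cells and plots.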

Additional observations from a re-analysis of the deposited data

Results flagged for a closer look

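Within each bulk arm, 20 groups of 5 tumours (10 genes, 2 arms) were checked for a tumour set apart from the other 4, and chance alone would mark about 1 in 20 such groups. A tumour was set apart in 2 groups, both times KMT5C 820. It had 26.5 CPM of FOS, where the other KMT5C tumours had 19.0 to 20.9 CPM. It also had 8.62 CPM of FOSB, where the others had 6.34 to 6.56 CPM. The same tumour had the highest JUN (213.4 CPM) and EGR1 (55.8 CPM) of its arm, though KMT5C 823 had 55.5 CPM of EGR1. The check did not set apart CTRL 804 in FOS, at 55.0 CPM where the other CTRL tumours had 16.2 to 27.5 CPM.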

How the results depend on the processing

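In bulk, 531 genes were called with edgeR, 1097 with DESeq2, 801 without the low-count filter and 337 to 681 with 1 tumour left out; among the 10 members the counts were 0, 1 (EDN1), 0 and 0 to 1 (EDN1 without CTRL 801, GADD45B without CTRL 813). Members near 0 changed sign: PLK2 had 0.0035 with DESeq2 and -0.052 to 0.043 with 1 tumour left out, ATF3 -0.017 to 0.19, FOSB -0.15 to 0.053, EGR1 -0.051 to 0.12 and IER3 -0.29 to 0.10. EDN1 stayed at 0.37 to 0.57 and GADD45B at 0.25 to 0.44, while FOS ran from -0.60 to -0.09. In single cells, 1 gene, the rat RKIP transgene, was called with the replicate block, 0 with no replicate block, 60 with DESeq2 and 0 to 1 with 1 experiment left out. Members called were 0 with edgeR, with or without the replicate block, and 2 with DESeq2, counts from which nothing is read because the members were chosen on this contrast. With 1 experiment left out, the log2 difference was 0.46 to 0.73 for ATF3, 0.50 to 0.63 for PLK2 and 0.73 to 1.06 for EDN1, while FOS (-0.10 to 0.19), EGR1 (-0.30 to 0.06) and KLF6 (-0.08 to 0.18) changed sign. Thinning to 10000 counts or not at all moved 16 of 20 shares by more than the spread between tumours, downwards and upwards respectively. ATF3, PLK2, EDN1, FOSB, GADD45B and IER3 kept a higher share in RKIP in 3 of 3 experiments at each depth, FOS did so at 20000 counts only, and JUN and KLF6 changed in 1 or more experiments. Depth sets the shares of the sparser genes, with means from 32.6% to 55.5% for EDN1, 35.8% to 64.0% for IER3 and 56.8% to 80.2% for ATF3 between 10000 counts and no thinning. Leaving out 1 single-cell CTRL tumour was an alternative chosen after seeing the data. It left 57 of 57 folds over bulk within 1 SD of the tumours' own folds. With 3 tumours, leaving 1 out cannot move the mean by 1 SD, so this count was fixed in advance and shows nothing. NR4A1 and IL6 dropped below 4-fold without CTRL tumour 2.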
